A study of Mus musculus with 8 samples.

Results

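The core cardiac transcription factors described here are 10 genes, Gata4, Gata6, Tbx5, Tbx20, Nkx2-5, Mef2a, Mef2c, Mef2d, Hand2 and Srf. They were chosen by name from the 54752 Ensembl gene IDs of a mouse RNA sequencing table. All 10 have a row there. Of these, 9 had enough reads to be tested, and Srf was listed at 0 in every library. The 10 proteins bind DNA in combination at the enhancers and promoters of heart muscle genes. GATA4 and GATA6 are zinc finger proteins, TBX5 and TBX20 carry a T-box, NKX2-5 a homeodomain, HAND2 a basic helix-loop-helix, and the MEF2 proteins and SRF a MADS box. They are known for building the heart in the embryo, and after birth they act at genes of contraction, conduction, metabolism and growth.

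The study addressed the role of Carm1, an arginine methyltransferase, in the maturation of heart muscle after birth. Carm1fl/fl mice were given AAV9, an adeno-associated virus that enters heart muscle well, carrying Cre (the KO groups) or GFP (the controls), and cardiomyocytes were isolated on a Langendorff apparatus. The 4 groups were control 1w (AAV-GFP), KO 1w (AAV-Cre), control 3w (AAV-GFP) and KO 3w (AAV-Cre), with 2 libraries each. The labels place the injection at postnatal day 1 or 2 for the 1w libraries and at day 3 or 4 for the 3w libraries. These days run on by 1 from library to library in both arms, so whether they are days of injection is uncertain; if they are, the day differs between the ages compared, and its part cannot be told apart from that of age. All groups carry floxed Carm1 alleles, and no group received Cre without them, so that an effect of Cre itself and one of Carm1 loss cannot be told apart. The hearts were mosaic, holding infected beside uninfected cells, and the promoter that drives Cre is not given in the sources used here. Nothing states outright that the paired libraries came from separate animals, so p-values measure the spread between libraries, which may be technical.

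Libraries held 20818285 to 53671626 gene counts, of which 40.7 to 47.8% were mitochondrial. Carm1 itself stood between 39.0 and 40.5 CPM (counts scaled to a common library total) in the 4 control libraries, between 22.2 and 22.4 CPM in KO 1w and between 17.3 and 17.8 CPM in KO 3w. Of the 10 cardiomyocyte markers 8 had reads, and Actc1 and Pln were at 0, as described for Srf below; the list summed to between 37195 and 80218 CPM. The summed count of 4 Y-linked genes was 0 to 3 in control 1w and KO 3w and 4282 to 6765 in control 3w and KO 1w. A KO effect at a single age, or an age effect within controls or within KO, therefore cannot be told apart from the presence of Y-linked transcripts. The mean of the KO effects over both ages, and the mean of the age effects over control and KO, are balanced for them. Levels below are CPM after TMM scaling, which sets the bulk of genes to no change. Changes are log2 fold changes ± SE with Benjamini-Hochberg adjusted p from edgeR's quasi-likelihood test, where an adjusted p under 0.05 made a call.

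The row of 1 member, Srf, could not be used, and those of Hand2 and Mef2a are uncertain. Srf (ENSMUSG00000015605, chr17:46548329-46556175, minus strand, mm10) lies wholly within the span of Gm26904, a long noncoding RNA gene on the opposite strand with which it shares 0 exon bases. Its count was 0 in all 8 libraries, while Gm26904 averaged 44.6 CPM in control 1w, 40.6 in KO 1w, 22.4 in control 3w and 24.5 in KO 3w. The other protein-coding genes named for that locus, Cul9, Dnph1 and Ptk7, were at 0 too. Across the table, 1315 of 1345 protein-coding genes lying wholly within other gene spans (97.8%) were at 0 in all libraries, against 3339 of 11721 genes (28.5%) that overlap no other. Genes that every cell or every cardiomyocyte uses, B2m, Actc1 and Pln, were among those at 0. The Srf row is therefore no measure of Srf, and no level or change is given for it. By counting error only, a count of 0 allows up to 0.126 CPM in the shallowest library (3 counts). That bound holds for a row that counts its gene, and is no limit on the level of Srf.

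**Figure D1:**
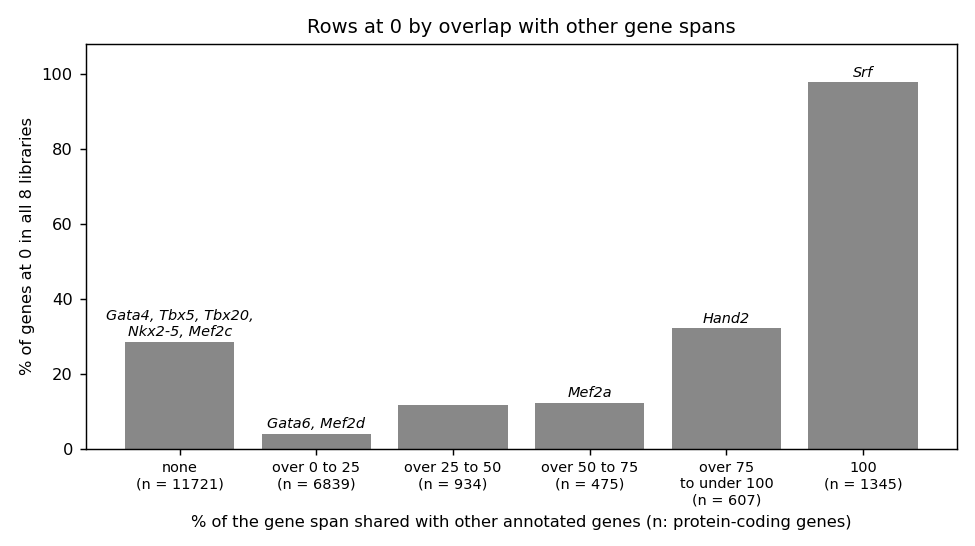
Percent of protein-coding genes at 0 in all 8 libraries (y axis) by the percent of the gene's span shared with other annotated genes (x axis), with the core factors named above their bar. The bar of genes wholly inside other spans, which holds Srf, reaches 97.8%, and the bar of genes with no overlap 28.5%.

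Hand2 (ENSMUSG00000038193, chr8:57320983-57324633, plus strand) shares 89% of its span with Hand2os1, a noncoding transcript on the opposite strand, and only 0.4 kb of its 2.35 kb of exon lies outside. Mef2a (ENSMUSG00000030557, chr7:67231163-67372858, minus strand) shares 56.1% of its span with Lysmd4, Gm44667 and Gm44668, which leaves 4.67 of 14.7 kb of exon. The other 7 members share at most 1.79%. Levels between genes are therefore compared per kb of exon that lies outside other gene spans, and Hand2 and Mef2a levels on any scale are uncertain.

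Ranked by CPM per kb, Gata4 led in control 1w with 45.8, followed by Mef2d with 36.2, Nkx2-5 with 26.3, Tbx20 with 25.8 and Gata6 with 18.0. Hand2 (5.84), Tbx5 (4.84), Mef2c (3.89) and Mef2a (2.97) stood lowest. In control 3w the order was Mef2d (35.2), Gata4 (32.5), Nkx2-5 (27.9), Gata6 (15.7), Tbx5 (10.6), Tbx20 (6.72), Hand2 (5.55), Mef2c (3.23) and Mef2a (1.48 CPM per kb). In KO 1w it was Gata4 (42.9), Mef2d (31.7), Nkx2-5 (23.0), Tbx20 (15.9), Gata6 (10.9 to 11.1 between libraries), Tbx5 (5.59), Mef2c (3.67), Hand2 (2.39) and Mef2a (2.12 CPM per kb). In KO 3w it was Mef2d (37.0), Gata4 (34.7), Nkx2-5 (26.5), Gata6 (11.2), Tbx20 (7.46), Tbx5 (5.14), Hand2 (4.52), Mef2c (3.35) and Mef2a (1.56 CPM per kb). The values of neighbouring genes overlapped between libraries only for Nkx2-5 and Tbx20 in control 1w. Gata4, Mef2d and Nkx2-5 thus held the first 3 ranks in every group, and the largest moves in rank with age were those of Tbx20 (4 to 6) and Tbx5 (7 to 5) in controls. In KO no gene moved by more than 1 rank with age, and Tbx5 stood at rank 6 at both.

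**Figure D2:**
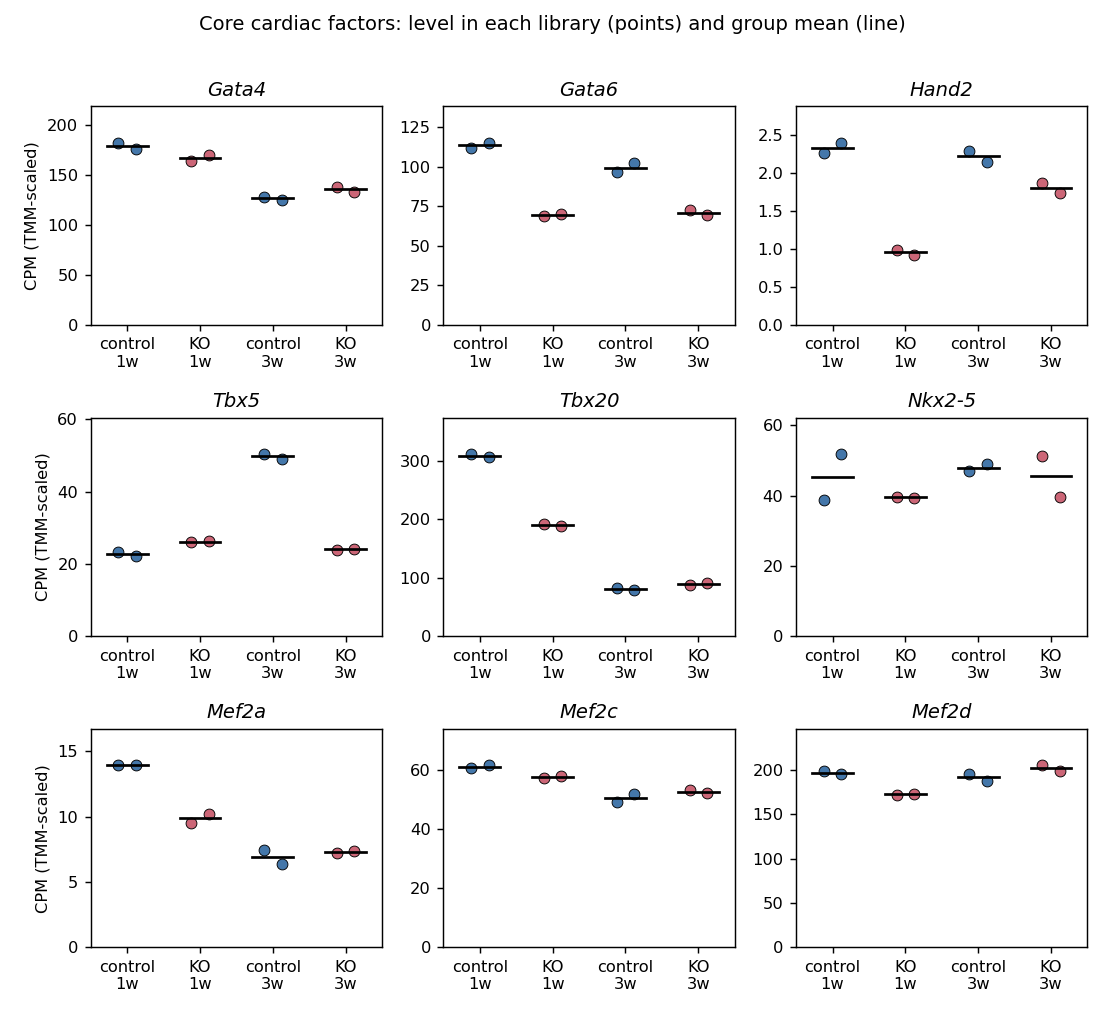
TMM-scaled CPM (y axes, each from 0) of the 9 measured factors in each of 8 libraries, 2 per group, with the group mean as a line (blue, control; red, KO). Gata6 and Hand2 are lower in all 4 KO libraries than in all 4 controls, and Tbx5 stands apart in control 3w, near 50 CPM.

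Over the mean of both ages, 6 of the 9 measured factors were lower in KO and 0 higher, where 25.3% of the 14665 genes tested were called lower, 27.5% higher and 52.8% in all. The 6 were Gata6, Hand2, Tbx5, Tbx20, Mef2a and Mef2d. Gata6 and Hand2 were the 2 in which all 4 KO libraries lay below all 4 control libraries. The share of all genes that split in this way is not given here, so the split does not set these 2 apart from other genes. When age and KO were fitted as additive terms, only Gata6 and Hand2 were called. That fit counts the difference between the KO changes at the 2 ages as spread. At 1w alone 1 factor was called higher and 6 lower (23.0% and 20.0% of all genes, 43.0% in all), and at 3w alone 2 higher and 2 lower (24.4% and 24.8%, 49.2% in all). Without KO 3w replicate 2, the calls at 3w fell from 4 to 2, and with library totals as the only scaling they rose to 7. That scaling moves the median log2 fold change of all genes by KO to 0.12 at 1w, 0.25 at 3w and 0.19 over their mean, from 0.02, 0.01 and 0.02, and takes the share of calls that were higher from 53.5, 49.6 and 52.1% to 73.7, 84.1 and 83.8%. Changes below are relative to the TMM scaling.

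**Figure D3:**
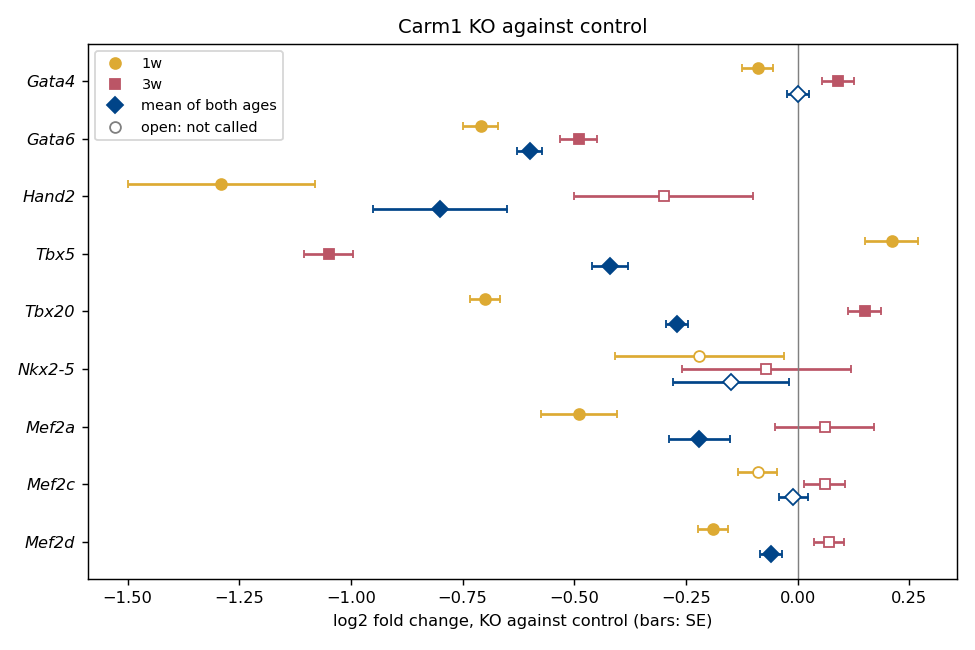
Log2 fold change of KO against control (x axis) with its SE for each measured factor at 1w, at 3w and as the mean of both; open symbols were not called. Gata6 lies between -0.71 and -0.49 in all 3 comparisons, and Tbx5 moves from 0.21 at 1w to -1.05 at 3w.

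Of the GATA factors, Gata6 was lower in KO and Gata4 hardly moved. Gata6 stood at 112 and 115 CPM in control 1w, 68.7 and 70.2 in KO 1w, 96.5 and 102 in control 3w, and 72.2 and 69.3 in KO 3w. The 4 KO libraries lay within a few CPM of each other and below every control. The log2 fold change was -0.71 ± 0.040 at 1w (adjusted p = 1.2e-23), -0.49 ± 0.041 at 3w (4.0e-16) and -0.60 ± 0.028 for their mean (2.5e-27). The noncoding gene 1010001N08Rik, on the opposite strand at Gata6, was lower by a similar amount, at 39.6 CPM in control 1w, 25.9 in KO 1w, 40.7 in control 3w and 27.5 in KO 3w (mean of both ages -0.58 ± 0.039, adjusted p = 3.0e-20). The 2 genes share 93 exon bases, and the strand setting of the counts is not given in the sources used here.

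Gata4 is the GATA factor known for driving growth of the muscle cell and natriuretic peptide genes. It stood at 182 and 176 CPM in control 1w, 164 and 170 in KO 1w, 128 and 125 in control 3w, and 138 and 133 in KO 3w. It was slightly lower in KO at 1w (-0.09 ± 0.034, adjusted p = 0.024; 0.01 with library totals) and slightly higher at 3w (0.09 ± 0.036, adjusted p = 0.024), and the mean was 0.00 (95% interval -0.05 to 0.05; 0.17, called higher, with library totals). Both calls are lost in DESeq2 (adjusted p = 0.069 and 0.21), the first also without control 1w replicate 1 (0.16) or KO 1w replicate 1 (0.28), and the second without control 3w replicate 2 (0.23) or either KO 3w library (0.40 and 0.060). As a share of the pair's summed CPM per kb, Gata4 made up 71.2 to 72.4% in control 1w and 79.5 to 79.7% in KO 1w, and 66.5 to 68.2% in control 3w and 75.6% in both KO 3w libraries. The balance thus lay further towards Gata4 in KO at both ages. With age Gata4 fell in controls (-0.49) and in KO (-0.31). Gata6 fell with age in controls (-0.20 ± 0.039) and was not called in KO (0.03, 95% interval -0.06 to 0.11). With library totals the age change of Gata6 in KO was -0.40.

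The T-box factors exchanged places with age in controls, and in KO Tbx20 stood above Tbx5 per kb at both ages. Tbx20, which in the adult heart is needed for contraction and conduction, stood at 312 and 307 CPM in control 1w, 192 and 189 in KO 1w, 81.7 and 79.5 in control 3w, and 87.9 and 91.1 in KO 3w. It had the largest fall with age of the 9 factors, by 1.94 ± 0.035 on the log2 scale in controls (adjusted p = 2.1e-50) and by 1.09 ± 0.035 in KO. KO 1w was already well below control 1w (-0.70 ± 0.033, adjusted p = 2.9e-27), and KO 3w was slightly above control 3w (0.15 ± 0.037, adjusted p = 0.00057; 0.071 without KO 3w replicate 2). Tbx5, known for chamber septation, conduction and atrial identity, did the opposite. It stood at 23.2 and 22.1 CPM in control 1w, 26.1 and 26.2 in KO 1w, 50.4 and 49.1 in control 3w, and 23.9 and 24.1 in KO 3w. The control 3w libraries stood far above the other 6, which lay close together. Tbx5 rose with age in controls (1.14 ± 0.055, adjusted p = 8.3e-28) and was not called in KO (-0.12, 95% interval -0.24 to -0.01, adjusted p = 0.059). In KO a fall was called with upper quartile scaling (-0.14, adjusted p = 0.036), with no filter on low counts (-0.16, 0.021) and with library totals (-0.55, 5.5e-11). Against control it was higher in KO at 1w (0.21 ± 0.059, adjusted p = 0.0022) and lower at 3w (-1.05 ± 0.055, adjusted p = 3.0e-25). The mean of both ages was -0.42 ± 0.041 (adjusted p = 9.6e-14). The call at 1w was lost without control 1w replicate 2 (adjusted p = 0.073) and in DESeq2 (0.058). The difference between the KO changes at the 2 ages was -1.26 ± 0.081 for Tbx5 (adjusted p = 8.9e-21) and 0.85 ± 0.050 for Tbx20 (2.0e-22), and it runs along the split of the Y-linked counts.

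As a share of the pair's CPM per kb, Tbx5 went from 15.6 and 16.0% in control 1w to 61.3% in both control 3w libraries, and from 25.9 and 26.2% in KO 1w to 41.1 and 40.4% in KO 3w. The KO libraries thus lay between the controls of the 2 ages. Atrial markers moved between the same groups. Bmp10, which is made by atrial muscle, averaged 0.118 CPM in control 1w, 180 in KO 1w, 20.3 in control 3w and 0.0699 in KO 3w. Myl7, the atrial light chain, averaged 7.91, 94.6, 13.6 and 1.84 CPM in the same order, and all 5 atrial markers were higher in KO at 1w while 4 were lower and Nppa higher at 3w. Their sum ranged from 53.6 to 55.7 CPM in control 1w, 590 to 596 in KO 1w, 164 to 168 in control 3w and 586 to 600 in KO 3w, where Nppa makes up nearly all of it. Like Tbx5, Bmp10 and Myl7 were higher in KO at 1w, lower in KO at 3w and higher with age in controls. With age in KO, Bmp10 (-11.25) and Myl7 (-5.68) fell, where Tbx5 was not called (-0.12). The highest group was control 3w for Tbx5 and KO 1w for Bmp10 and Myl7. The part of atrial cells in the Tbx5 values was not tested.

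**Figure D4:**
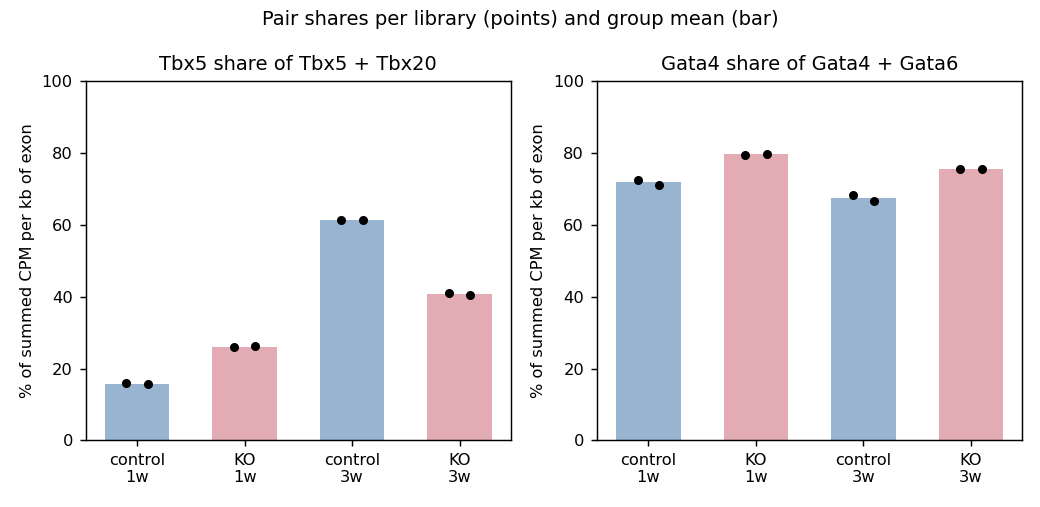
Share of Tbx5 in the summed CPM per kb of Tbx5 and Tbx20 (left) and of Gata4 in that of Gata4 and Gata6 (right), in percent; points are libraries, bars group means. Tbx5 goes from 15.6 to 16.0% in control 1w to 61.3% in control 3w, and in KO from at most 26.2% to at most 41.1%.

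Nkx2-5, the homeodomain factor that pairs with GATA4 and TBX5, could not be placed, because its libraries disagreed within groups. It stood at 38.7 and 51.8 CPM in control 1w, 39.6 and 39.3 in KO 1w, 47.0 and 48.9 in control 3w, and 51.3 and 39.7 in KO 3w. The libraries of control 1w differed 1.34-fold and those of KO 3w 1.29-fold, against 1.04-fold and 1.01-fold in the other groups. Of 6854 genes with a mean of at least 10 CPM, only 0.350% and 0.204% differed more between those library pairs. No comparison called Nkx2-5. The 95% interval of the KO effect over both ages was -0.51 to 0.22 on the log2 scale and that of the age effect -0.23 to 0.49, so that a change anywhere within those bounds remains possible.

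Of the MEF2 factors, Mef2a and Mef2c fell with age and Mef2d was not called lower, except in controls with upper quartile scaling (-0.11, adjusted p = 0.0053) and in both groups with library totals. MEF2 proteins recruit class IIa histone deacetylases or coactivators, CARM1 among them in skeletal muscle, to genes of contraction and energy use. Mef2a stood at 13.9 CPM in both control 1w libraries, 9.54 and 10.2 in KO 1w, 7.46 and 6.39 in control 3w, and 7.20 and 7.39 in KO 3w. It fell with age by 0.98 ± 0.092 on the log2 scale in controls and by 0.44 in KO. KO was lower at 1w (-0.49 ± 0.085, adjusted p = 2.3e-06) and not called at 3w (0.06, 95% interval -0.15 to 0.27; called higher with library totals, 0.31, adjusted p = 0.014). The mean of both ages (-0.22 ± 0.068, adjusted p = 0.0055) was not called in DESeq2 (0.074), without control 3w replicate 1 (0.086) or with library totals (0.61). Lysmd4, on the opposite strand, shares 302 exon bases with Mef2a. It rose with age, by 1.10 in controls and 1.08 in KO, where Mef2a fell. In KO over the mean Lysmd4 was called lower (-0.14 ± 0.055, adjusted p = 0.027), as Mef2a was. With library totals its call was lost (0.03, adjusted p = 0.63). The part of Lysmd4 in the Mef2a values was not tested.

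Mef2c stood at 60.7 and 61.6 CPM in control 1w, 57.4 and 58.0 in KO 1w, 49.2 and 52.1 in control 3w, and 53.2 and 52.2 in KO 3w. It fell with age by 0.28 in controls and by 0.13 in KO, where the call is lost in DESeq2 (adjusted p = 0.10) and without KO 1w replicate 2, KO 3w replicate 1 or KO 3w replicate 2 (0.061, 0.059 and 0.13). Its KO effect was not called at 1w (-0.09, adjusted p = 0.11) or 3w (0.06, 0.30), and the mean was -0.01 (95% interval -0.08 to 0.05; 0.16 with library totals). At 1w it was called lower without either control 3w library (-0.10 in both, adjusted p = 0.033 and 0.034) and in the fit of the 2 groups alone (-0.10, 0.049). At 3w it was called higher with upper quartile scaling (0.11, adjusted p = 0.041) and library totals (0.31, 4.3e-07). The difference between the KO changes (0.14, adjusted p = 0.068) was called under both scalings (0.20 and 0.29, adjusted p = 0.013 and 0.00032) and without control 3w replicate 2 (0.18, 0.029). Mef2d stood at 199 and 195 CPM in control 1w, 172 and 173 in KO 1w, 195 and 188 in control 3w, and 205 and 199 in KO 3w. KO 1w was thus the one low group (-0.19 ± 0.034, adjusted p = 2.8e-06), and Mef2d rose with age in KO by 0.22 (-0.20 with library totals). At 3w it was not called (0.07), but was called higher without control 3w replicate 1 (0.10, adjusted p = 0.030), with upper quartile scaling (0.13, 0.0016) and with library totals (0.32, 6.5e-10). Its mean KO effect of -0.06 ± 0.024 (adjusted p = 0.030) turned to 0.11 with library totals. It was not called with upper quartile scaling (adjusted p = 0.28), with no filter on low counts (0.089), or without control 1w replicate 1 (0.077), KO 1w replicate 1 (0.11), KO 1w replicate 2 (0.083) or KO 3w replicate 2 (0.060). By CPM per kb Mef2d made up 83.9 to 88.4% of the 3 genes in every library.

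With age, 1 factor was called higher and 5 lower in controls (34.9% and 36.0% of all genes, 70.8% in all), 2 higher and 4 lower in KO (33.2% and 34.6%, 67.9% in all), and 3 higher and 5 lower over their mean (37.4% and 39.4%, 76.8% in all). Over the mean Tbx20 (-1.52), Mef2a (-0.71), Gata4 (-0.40), Mef2c (-0.20) and Gata6 (-0.08) were lower and Tbx5 (0.51), Hand2 (0.42) and Mef2d (0.09) higher, of which Hand2 (-0.08) and Mef2d (-0.41) turn with library totals and Tbx5 (0.01, adjusted p = 0.87) is no longer called. The Gata6 call was lost in DESeq2 (adjusted p = 0.11) and without control 3w replicate 1 (0.12) or KO 3w replicate 2 (0.13), and that of Hand2 in DESeq2 (0.091). In the additive fit 4 of the 8 were called. Library totals put the median age change of all genes at -0.60 in controls, -0.45 in KO and -0.53 over their mean, from -0.03, -0.02 and -0.03, and the share of calls that were higher at 16.6, 18.5 and 17.4%, from 49.2, 49.0 and 48.7%.

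**Figure D5:**
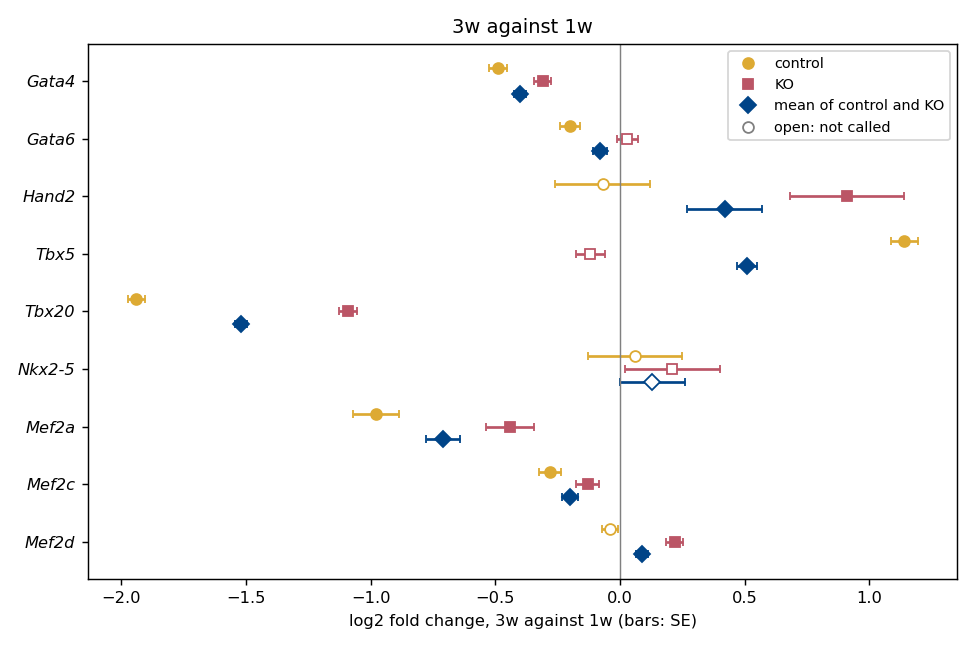
Log2 fold change of 3w against 1w (x axis) with its SE for each measured factor in control, in KO and as their mean; open symbols were not called. Tbx20 lies at -1.94 in control and -1.09 in KO, and Tbx5 at 1.14 in control and -0.12 in KO.

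Promoters are shown for Tbx20, Mef2a and Mef2c, which fell with age in controls and in KO, and for Mef2d, which was not called lower in either (with library totals -0.62 and -0.20, and with upper quartile scaling -0.11 in controls). RefSeq promoters (GRCm38.p6, 250 bases before to 50 after the start site, 5′ to 3′ on the gene's strand) were found for 7 of the 10 members. Tbx20 is at chr9:24774254-24774553 (minus), Mef2a at chr7:67372809-67373108 (minus), Mef2c at its first start at chr13:83503784-83504083 (plus) and Mef2d at chr3:88142122-88142421 (plus). Capitals mark a motif match.
Tbx20: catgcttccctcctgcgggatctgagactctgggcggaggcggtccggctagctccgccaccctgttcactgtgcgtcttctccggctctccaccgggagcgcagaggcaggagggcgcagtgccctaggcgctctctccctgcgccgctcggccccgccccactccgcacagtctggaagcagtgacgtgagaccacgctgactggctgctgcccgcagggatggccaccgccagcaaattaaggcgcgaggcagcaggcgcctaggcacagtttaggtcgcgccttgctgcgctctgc
Mef2a: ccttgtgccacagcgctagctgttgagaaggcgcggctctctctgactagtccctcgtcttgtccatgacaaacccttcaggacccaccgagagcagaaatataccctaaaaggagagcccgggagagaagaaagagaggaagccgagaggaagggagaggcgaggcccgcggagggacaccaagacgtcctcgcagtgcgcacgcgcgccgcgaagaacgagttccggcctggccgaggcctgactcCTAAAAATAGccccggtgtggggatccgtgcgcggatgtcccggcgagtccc
Mef2c: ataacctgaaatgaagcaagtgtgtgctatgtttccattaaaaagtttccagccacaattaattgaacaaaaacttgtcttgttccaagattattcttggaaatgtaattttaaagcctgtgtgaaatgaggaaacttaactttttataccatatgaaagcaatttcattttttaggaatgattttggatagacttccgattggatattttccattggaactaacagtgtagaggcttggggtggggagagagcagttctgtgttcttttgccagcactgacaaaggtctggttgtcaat
Mef2d: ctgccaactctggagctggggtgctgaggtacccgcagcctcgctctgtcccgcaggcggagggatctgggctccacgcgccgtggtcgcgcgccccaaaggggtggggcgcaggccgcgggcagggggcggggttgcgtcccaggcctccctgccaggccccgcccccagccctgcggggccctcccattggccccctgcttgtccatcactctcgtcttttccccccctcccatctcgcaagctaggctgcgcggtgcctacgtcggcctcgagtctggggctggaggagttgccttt
Both strands were searched for the GATA motif AGATAA, the T-box motif AGGTGT, the NKX2-5 motif TNAAGTG, the HAND motif CATCTG, the MEF2 site and the CArG box bound by SRF. They occur in 11.2, 13.7, 11.5, 17.2, 3.19 and 1.63% of all 32851 RefSeq promoters of this length. In the 4 promoters shown, the MEF2 site of Mef2a, across its start site, was the one match, and no 2 matches overlapped in any member. The other start sites of Mef2c held a T-box motif (start 2) and a HAND motif (start 3). The GC content of the 3 promoters of falling genes ranged from 35.7% (Mef2c) to 68.3% (Tbx20), beside 72% in Mef2d. The Srf promoter held 2 CArG boxes and that of Hand2 a GATA and a HAND motif, and that of Nkx2-5 held none.

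Hand2, a factor of the embryonic right ventricle that is also made in neurons and fibroblasts, was the least abundant in CPM. It stood at 2.27 and 2.40 CPM in control 1w, 0.988 and 0.926 in KO 1w, 2.29 and 2.15 in control 3w, and 1.87 and 1.74 in KO 3w, from 35 to 96 counts per library. All 4 KO libraries lay below the 4 controls. The log2 fold change was -1.29 ± 0.21 at 1w (adjusted p = 9.2e-07), -0.30 ± 0.20 at 3w (not called, adjusted p = 0.21) and -0.80 ± 0.15 for the mean (4.8e-06). Hand2os1, which lies over most of Hand2, averaged 34.7 CPM in control 1w, 24.8 in KO 1w, 29.4 in control 3w and 19.8 in KO 3w, and was lower in KO at both ages (-0.48 ± 0.056 and -0.57 ± 0.061; mean -0.53 ± 0.041, adjusted p = 3.0e-17). The 2 rows thus both fell by KO over the mean of the ages, and reads of the shared part cannot be told apart without strand. With age Hand2 rose in KO (0.91 ± 0.23) and was not called in controls (-0.07, 95% interval -0.45 to 0.30; called lower with library totals, -0.65, adjusted p = 0.0017).

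The KO changes at the 2 ages differed for 7 of the 9 factors, 6 with a higher and 1, Tbx5, with a lower value at 3w than at 1w (17.6% and 17.9% of all genes, 35.6% in all). Markers of other cell types moved with both age and KO. In KO over the mean of both ages, 27.5% of all genes tested were called higher and 25.3% lower. At 1w these shares were 23.0% and 20.0%, at 3w 24.4% and 24.8%, and with age over the mean 37.4% and 39.4%. Of 9 fibroblast markers 8 were tested, and all 8 were higher in KO at both ages and lower at 3w than at 1w; Tcf21 was at 0. Their sum ranged from 1232 to 1234 CPM in control 1w, 2275 to 2299 in KO 1w, 279 in both control 3w libraries and 616 to 626 in KO 3w. The factors called in KO over the mean, Gata6, Hand2, Tbx5, Tbx20, Mef2a and Mef2d, were all lower, where this sum was higher. With age over the mean, Gata4, Gata6, Tbx20, Mef2a and Mef2c fell, as the sum did, and Tbx5, Hand2 and Mef2d rose. All 8 cardiomyocyte markers tested were lower in KO over the mean (median -0.22, the 9 measured factors -0.22). With age over the mean all 8 were higher (median 0.82, the factors -0.08). With library totals fewer of them were called lower in KO or higher with age. Of 8 endothelial markers 7 were higher in KO over the mean (median 0.27) and 7 lower with age (median -1.33), and their sum was 756 to 769 CPM in control 1w, 880 to 888 in KO 1w, 296 to 307 in control 3w and 353 to 363 in KO 3w. All 8 macrophage markers were higher in KO at both ages (median 1.24 over the mean), with a sum of 42.9 to 43.6 CPM in control 1w, 134 to 141 in KO 1w, 75.6 to 76.4 in control 3w and 115 to 118 in KO 3w. Of 6 epicardial markers 5 were higher in KO at 1w (median 1.80) and 5 lower at 3w (median -0.85; 4 with library totals), with sums of 23.8 to 24.9 CPM in control 1w, 41.1 to 42.7 in KO 1w, 21.7 to 23.1 in control 3w and 12.9 to 14.0 in KO 3w. No marker of these 3 lists was at 0 in a whole group. In these bulk samples fewer cells of a type and less RNA per cell cannot be told apart, and the part of other cells in the factors' changes was not tested.

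Partners of the factors were described from lists chosen with earlier results of these data known. Their counts stand beside 27.5% of all genes called higher and 25.3% lower in KO over the mean. With age over the mean these shares were 37.4% and 39.4%. Of 9 tested partners of GATA4, NKX2-5 and TBX5, 3 were higher and 1 lower in KO over the mean of both ages (list median 0.06, all genes 0.02; 7 and 0 with library totals). Smarca4, the ATPase of the BAF remodelling complex, rose in KO from 84.5 ± 0.162 to 100 ± 0.363 CPM at 1w and from 100 ± 0.923 to 115 ± 1.98 at 3w (SD, n = 2; mean 0.22 ± 0.027). Jarid2, a repressor that binds GATA4 and NKX2-5, was lower (-0.20 ± 0.039; with library totals -0.03, adjusted p = 0.59) and fell with age in controls by 0.67. Of 10 MEF2 regulators 5 were higher and 3 lower (median 0.07; 7 and 0 with library totals). They include the kinase gene Mapk7 (0.45 ± 0.085) and the repressors Hdac7 (0.41 ± 0.044) and Cabin1 (0.36 ± 0.038). With age Hdac7 fell (-1.29) and Hdac9, another class IIa deacetylase, rose (0.72). Over the same mean 8 of the 10 MEF2 regulators rose and 2 fell (median 0.29, all genes -0.03), which turns to 2 and 7 with library totals.

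SRF could be described only through its partners and targets. Of 8 partners 3 were higher and 3 lower in KO over the mean (median -0.10, which turns to 0.07 with library totals). Myocd, the muscle coactivator of SRF, averaged 119 ± 4.86 CPM in control 1w, 76.9 ± 1.06 in KO 1w, 76.9 ± 1.66 in control 3w and 97.7 ± 2.35 in KO 3w (SD, n = 2). It was lower in KO at 1w (-0.62 ± 0.039) and rose with age in KO (0.35 ± 0.040), which turns to -0.08 with library totals. The ternary complex factor Elk3 (0.63 ± 0.097) and the actin-sensing coactivator Mrtfa (0.40 ± 0.067) were higher in KO over the mean. Fhl2 was lower over it (-0.30 ± 0.019, adjusted p = 0.11 in the additive fit). The fall of Fhl2 was at 3w (-0.65 ± 0.028), while at 1w it averaged 779 CPM in control and 806 in KO. Of 14 tested SRF targets of muscle and cytoskeleton, 12 were higher and 1 lower in KO over the mean of both ages (median 0.57, all genes 0.02). Over that mean 27.5% of all genes were called higher and 25.3% lower. At 1w alone these shares were 23.0% and 20.0%, and at 3w 24.4% and 24.8%. Myh11, the smooth muscle myosin, stood at 20.4 CPM in control 1w, 46.4 in KO 1w, 2.66 in control 3w and 23.1 in KO 3w, and Myl9 at 94.3, 223, 23.1 and 96.3 CPM. This list shares Myh11, Acta2, Tagln and Cnn1 with the 8 markers of smooth muscle and pericytes. Those markers summed to 1738 to 1812 CPM in control 1w and 2265 to 2285 in KO 1w. At 3w the sums were 1101 to 1142 CPM in control and 1990 to 1998 in KO. Acta2 made up most of each sum. At 3w all 8 were called higher in KO, but at 1w 4 were higher and 3 lower. Those lower at 1w include Abcc9 (382 to 264 CPM) and Rgs5 (205 to 173 CPM). The part of these cells in the SRF targets was not tested. Of 7 immediate early targets 6 were higher in KO at 1w and 0 lower (median 1.27), and at 3w 2 were higher and 3 lower (median -0.05), or 5 and 2 with library totals. Egr1 averaged 33.4 CPM in control 1w, 152 in KO 1w, 156 in control 3w and 120 in KO 3w.

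Targets of the GATA, NKX and T-box factors moved both ways by KO, with 5 higher and 5 lower of 12 tested over the mean (median 0.04; 8 and 4 with library totals). Those that rose over the mean include the natriuretic peptide genes Nppa (2.48 ± 0.026) and Nppb (0.86 ± 0.027). The stress gene Ankrd1 was called higher over it too (1.15 ± 0.021, adjusted p = 0.21 in the additive fit). Ankrd1 was higher in KO at 3w (2.44 ± 0.031), but at 1w it averaged 728 CPM in control and 656 in KO. Most of the Nppa span is shared with another gene. With age 9 rose and 2 fell over the mean (median 0.74; 8 and 4, median 0.23, with library totals). Among all genes tested, 27.5% were called higher and 25.3% lower in KO over the mean, and 37.4% and 39.4% with age. Adora1, the adenosine receptor, went from 10.2 to 56.4 CPM in controls and from 12.7 to 52.7 CPM in KO. Of 11 tested MEF2 targets 8 were lower and 1 higher in KO over the mean (median -0.22; 5 and 3 with library totals, 6 and 0 in the additive fit), while 9 rose with age and 2 fell (median 0.77; 6 and 4, median 0.27, with library totals). Ppargc1a (-1.23 ± 0.025), Slc2a4, the insulin-sensitive glucose transporter (-0.49 ± 0.024), and Ckm, muscle creatine kinase (-0.39 ± 0.019), were lower in KO. Slc2a4 rose with age from 120 to 517 CPM in controls and from 112 to 282 CPM in KO. Over the same mean Mef2a (-0.22) and Mef2d (-0.06) were called lower and Mef2c (-0.01) was not called. Cardiomyocyte markers, of which all 8 tested fell in KO over the mean (median -0.22) and all 8 rose with age (median 0.82), moved in the same directions; their part was not tested. With library totals 4 of them were lower and 1 higher in KO, and 6 rose and 2 fell with age, Myl2 by 0.19 and Actn2 by 0.17 on the log2 scale.

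Other cardiac factors outside the 10 changed in both directions too, as did all genes. Of the latter, 27.5% were called higher and 25.3% lower in KO over the mean, and 37.4% and 39.4% with age. Of 18 tested, 4 were higher and 6 lower in KO over the mean (median -0.09; 5 and 3, median 0.08, with library totals), and 5 rose and 10 fell with age (median -0.34; 2 and 15, median -0.84, with library totals). Irx3, a conduction system homeobox gene, stood at 3.08 CPM in control 1w, 6.03 in KO 1w, 18.1 in control 3w and 8.77 in KO 3w, so that it was higher in KO at 1w (0.94 ± 0.13) and lower at 3w (-1.05 ± 0.088), the directions in which Tbx5 moved. Heyl, a Notch target, was higher in KO over the mean (0.81 ± 0.069; adjusted p = 0.083 in the additive fit) and fell with age (-1.86 ± 0.065).

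For each measured factor the gene of at least 10 mean CPM with the most similar pattern was taken by Pearson r of log2 CPM over the 8 libraries. The libraries form 4 tight groups and the search ran over about 6853 genes, so that high values are to be found by choice, and they are a description only. The nearest gene was Ywhaz for Gata4 (r = 0.9964), Ctnna3 for Gata6 (0.9970), Sik3 for Tbx5 (0.9948) and Sox12 for Tbx20 (0.9965). It was Nfil3 for Mef2a (0.9921), Ndel1 for Mef2c (0.9914), Meis1 for Mef2d (0.9839) and Palld for Hand2 (0.9974). For Nkx2-5 it was Ppdpf, at 0.9116, the lowest of the 9.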

How the data were processed

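RNA of isolated cardiomyocytes was sequenced in 8 libraries from 4 groups of 2, with groups taken from the sample labels. The deposited values are whole-number counts per Ensembl gene, made by the authors. Per the submitters' processing notes, the tools were FastQC, MultiQC, HISAT2 (mm10), featureCounts and DESeq2; what versions, strand setting and annotation they used, and how overlapping genes were handled, is not given in the sources used here. SMART and Nextera XT kits made the libraries, per the labels.

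GENCODE M21 named 54723 of 54752 IDs and gave spans and exons. Genes were kept by edgeR's filterByExpr (minimum count 10, total 15), which left 14665, and scaled by TMM, a trimmed mean of log ratios (factors 0.759 to 1.23). edgeR's robust quasi-likelihood F-test was run on 1 fit of the 4 groups (4 residual degrees of freedom, common coefficient of variation 3.03%), with Benjamini-Hochberg adjustment over all genes tested. The 7 comparisons are KO against control and 3w against 1w, each in both groups and as a mean, and the difference between the KO changes. SEs come from the F statistic. Alternatives were other scalings, DESeq2, no filter, left-out libraries, a replicate block, an additive fit, fits of 2 groups and, added after seeing the data, a fit without genes that share most (over 50%) of their span. R 4.3.3, edgeR 4.0.16 and DESeq2 1.42.0 were used. Tested on simulated counts for KO against control at 1w over 14665 genes, the fit recovered 40.0% of genes changed 1.25-fold and 74.0% at 2-fold, with 3.57% of calls unchanged genes. For KO at 3w it recovered 30.0% and 84.0%, and unchanged genes were 5.48% of calls there, 6.92% for age in control and 7.84% for age in KO, above the 5% set. Each simulation changed only a small part of the genes, whereas 43.0% were called in the data for KO at 1w. Its rates therefore need not hold for the calls reported here.

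The members and lists were chosen with earlier results of these data known. All 10 members are named, and from each list of partners, targets and other factors up to 3 called genes with the largest change in a comparison and a mean CPM of at least 5. A gene named in 1 comparison may be given in the others too.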

Additional observations from a re-analysis of the deposited data

Results flagged for a closer look

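For 7 factors the KO change at 3w differed from that at 1w by the test of the difference itself, with adjusted p from edgeR's quasi-likelihood fit over all genes. On the log2 scale the difference was 0.19 for Gata4 (adjusted p = 0.0019), 0.22 for Gata6 (0.0013), -1.26 for Tbx5 (8.9e-21), 0.85 for Tbx20 (2.0e-22), 0.55 for Mef2a (0.00083), 0.27 for Mef2d (6.0e-06) and 0.98 for Hand2 (0.0060). Hand2 was not called by DESeq2 (adjusted p = 0.11). Y-linked counts split the groups the same way (0 to 3 in control 1w and KO 3w, 4282 to 6765 in control 3w and KO 1w), so a change by age and one along that split cannot be told apart.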

How the results depend on the processing

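With library totals as the only scaling, 7 changes turned in sign: Gata4 in KO at 1w (0.01), Mef2c (0.16) and Mef2d (0.11) in KO over the mean of both ages, Gata6 (-0.40) and Mef2d (-0.20) with age in KO, and Mef2d (-0.41) and Hand2 (-0.08) with age over the mean. Under it 7 core factors were called in KO at 3w, against 4. The additive fit called 2 core factors in KO over the mean of both ages, against 6, and 4 with age over the mean, against 8. Leaving out 1 library at a time gave 2 to 5 core factors called for KO at 3w, with 2 without KO 3w replicate 2, 6 to 8 for KO at 1w, 5 to 6 for KO over the mean and 7 to 8 for age over the mean. Of 1111 log2 fold changes recomputed under the alternatives, 1045 kept their direction and side of the threshold, 40 lost a call, 19 gained one and 7 turned; the cause was not tested. DESeq2 called 3766 genes for KO at 1w, against 6305, and 3104 for the difference between the KO changes, against 5215; the additive fit called 4505 for KO over the mean, against 7747. Replicate numbers are shared between groups but same-numbered libraries did not deviate together (correlations of -0.02 to 0.01), so they were not taken as pairs. With the replicate block the same number of core factors was called in each comparison (7 for KO at 1w, 4 at 3w and 6 over the mean); with a replicate block within each age, 7 instead of 8 were called for age over the mean. The fit without genes that share over 50% of their span, which drops Hand2 and Mef2a, changed no call of the other 7 measured factors. Hand2, at 35 to 96 counts per library, is limited by depth: counting alone gives a coefficient of variation of 11.6 to 16.0% within its groups.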
